A study of Homo sapiens with 2 samples.

Results

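The 55 genes described here encode mitotic kinases, the spindle checkpoint, kinetochore proteins, kinesins, cytokinesis factors and condensins, together with regulators of mitotic entry and mitotic transcription. They were chosen by symbol, as genes of mitosis most of which are repressed when the DREAM complex acts. All 55 were found among the 27856 genes with a value in the deposited table. The samples were A549 cells, a human lung cancer cell line, harvested 48 h after siRNA transfection. The siRNA was either a control or directed against MILIP (MAFG-AS1), the long noncoding RNA (lncRNA) that the study examined. There was 1 library per condition, so no spread between cultures could be measured, no test was possible and no p-value is given. Since 1 MILIP siRNA was used, effects of that siRNA and of the loss of MILIP cannot be told apart.

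When chromosomes condense at the onset of mitosis, kinetochores assemble on the centromeres, capture spindle microtubules and, while any remain unattached, keep the spindle checkpoint active, which holds back the anaphase-promoting complex. Once the complex is released, it targets securin and cyclin B for degradation, the sister chromatids separate and the cell divides. Transcription of many of these genes peaks in G2 and mitosis. In quiescent or arrested cells the DREAM complex represses many of them through the cell cycle genes homology region (CHR) of their promoters, and in G2 the complexes of MYBL2 and FOXM1 activate them.

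The labels held for the targeted transcript. MILIP itself was at 29.5 in the control library and at 3.22 after knockdown, from 588 and 64 reads. Values are as deposited and were taken as CPM. They are scaled for each library by a method that is not given in the sources used here, and their sums differ between the libraries. Each value is a whole multiple of a fixed step, here taken as 1 read. On that basis the libraries held 20300800 reads with control siRNA and 19460956 with MILIP siRNA. Log2 ratios are of MILIP siRNA over control siRNA after adding 1 to each value. The 95% limits beside them are Clopper-Pearson limits of the ratio without that addition, and they cover counting error only. CDKN1A, which encodes the cyclin-dependent kinase inhibitor p21, was at 258 and 288, with a log2 ratio of 0.16 (limits 0.10 to 0.21). The reference genes GAPDH and ACTB had log2 ratios of −0.16 and 0.24. The epithelial keratins KRT7, KRT8, KRT18 and KRT19 had values of 62.1 or more in both libraries, whereas EPCAM was low at 2.65 and 5.93. PECAM1, VWF, CDH5, LUM and PDGFRB, markers of endothelial and fibroblast cells, were listed at 0 in both, which for this table means fewer than 20 reads, and PTPRC and CD3E, markers of blood cells, and DCN, of fibroblasts, had no value.

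The 55 mitotic genes had a median log2 ratio of −0.19, beside −0.03 over all genes tested. It was −0.11 with the trend of ratios with GC content removed and −0.07 with a length trend removed as well. MAD2L1, which encodes the checkpoint protein MAD2, was the lowest at 47.3% of its control value, and CENPA, the histone H3 variant that marks centromeres, was the highest at 189%. The cytokinesis genes ECT2 and RACGAP1 were at 55.6% and 55.8%. The 4 genes listed under mitotic entry had ratios from 0.29 to 0.66, of which CKS2 alone was past 1.5-fold. Summed over the 55 members, the values came to 7102 in control and 6404 after knockdown. The sum fell by 9.82%, and that of all other genes tested fell by 3.75%. In bulk RNA, fewer cells in G2 or mitosis and less RNA per cell cannot be told apart.

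A gene was counted as lower or higher from a 1.5-fold difference, which is 0.585 on the log2 scale, among the 13521 genes with a mean value of at least 1. Of the members, 8 were lower and 3 higher. The lower ones were BUB1B, CDC20, CENPE, ECT2, KIF14, KNL1, MAD2L1 and RACGAP1. That is 14.5% of the members, beside 13.8% of all genes tested, a share near the background. CENPA, CKS2 and MAD1L1 were higher, 5.45% of the members beside 11.1% of all genes tested. The counting limits lay wholly past the 1.5-fold line for 4 of the lower members (MAD2L1, ECT2, RACGAP1 and KIF14) and for all 3 of the higher ones. For BUB1B, CDC20, CENPE and KNL1 they also held smaller differences.

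Of the 55 ratios, 36 were below 0 and 19 above, so that 65.5% were below, beside 52.2% of all genes tested. The quartiles of the log2 ratio were −0.41 and 0.05 in the members and −0.36 and 0.29 over all genes tested. Counting limits lay below 0 for 31 members, 56.4%, beside 36.7% of all genes tested, and above 0 for 11 members, 20%, beside 30.8%. Limits narrow with depth, and no member had fewer than 313 reads. Among the 8046 genes with a mean at least that of the lowest member, the limits lay below 0 for 46.1% and above 0 for 33.7%, 15.1% were at least 1.5-fold lower, 8.60% at least 1.5-fold higher, and the median was −0.07.

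**Figure D1:**
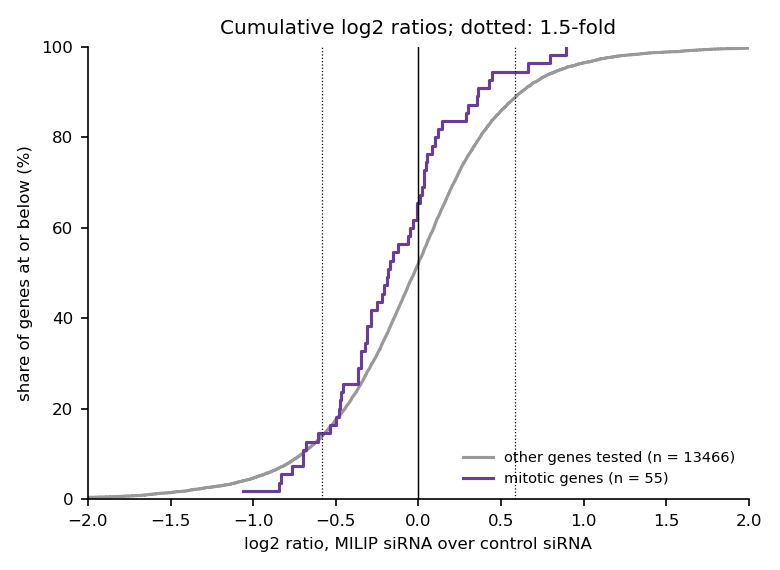
Cumulative share of genes (vertical axis, percent) at or below each log2 ratio of MILIP siRNA over control siRNA (horizontal axis), for the 55 mitotic genes and the 13466 other genes tested, with the 1.5-fold lines dotted. The curves meet near the lower 1.5-fold line, where they reach 14.5% and 13.8%, and at 0 they are at 65.5% for the mitotic genes and 52.1% for the others.

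**Figure D2:**
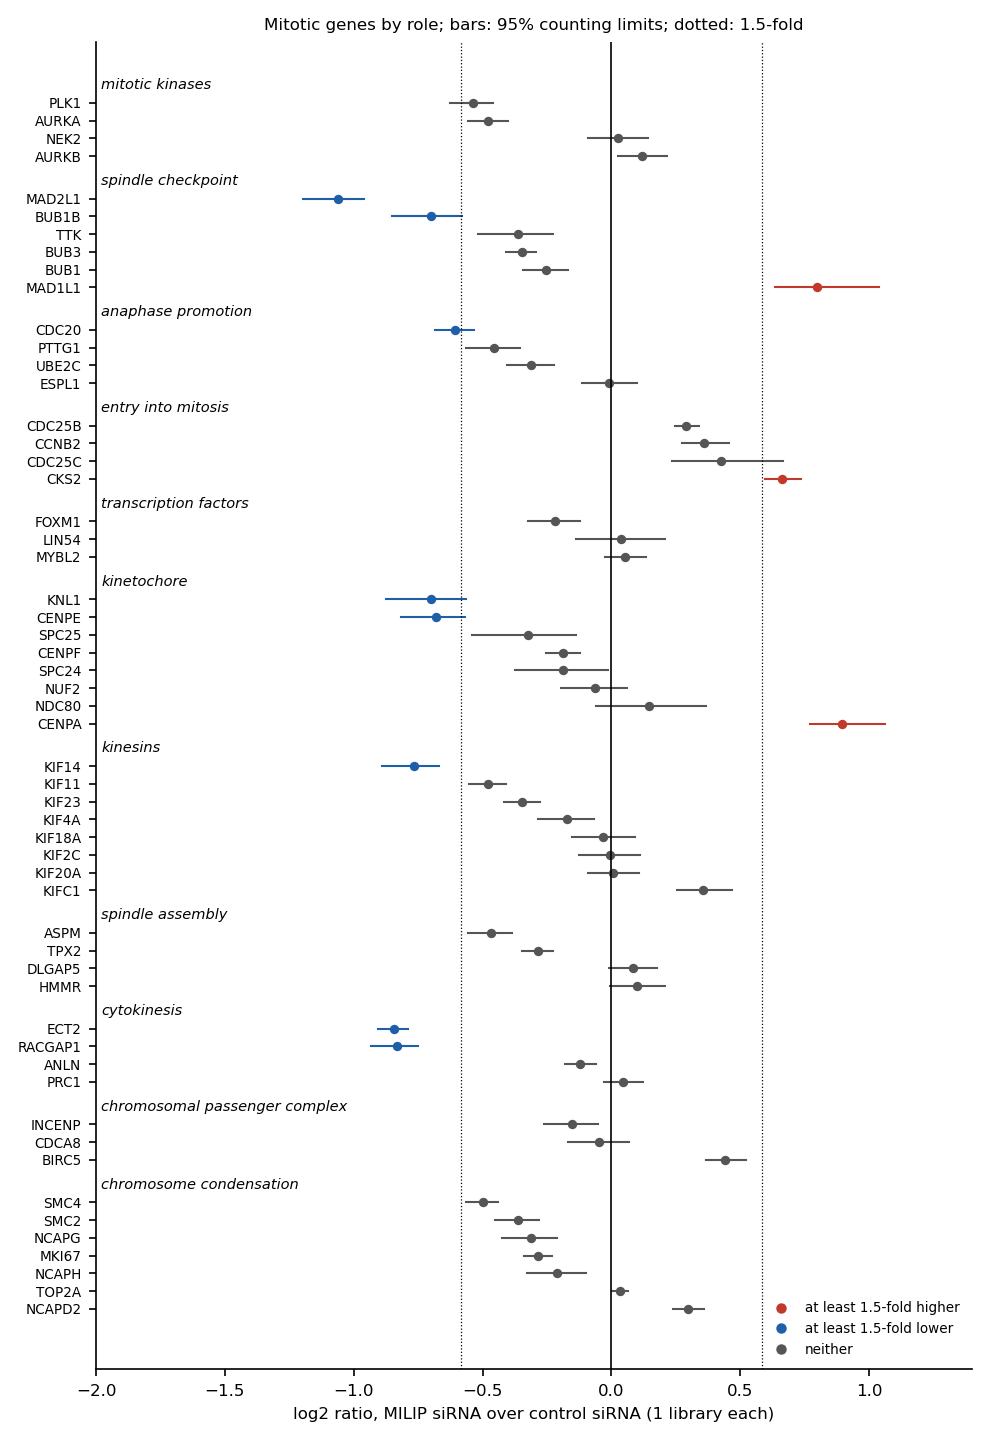
Log2 ratio of each mitotic gene (horizontal axis), grouped by role, with 1 library per condition. Points are ratios, bars are 95% counting limits and dotted lines mark 1.5-fold. All 4 genes listed under mitotic entry lie to the right of 0, and 5 of the 6 checkpoint genes lie to the left.

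The spindle checkpoint held the lowest member and one of the highest. MAD2L1 (chr4:120055608-120067074, − strand, GRCh38) encodes the subunit that binds and inhibits CDC20 at unattached kinetochores. It had 1779 reads and a value of 89.1 in control, against 839 reads and 42.2 after knockdown, which gave a log2 ratio of −1.06 (limits −1.20 to −0.96). It was the one member at least 2-fold lower. BUB1B (chr15:40161023-40221136, + strand), which encodes the checkpoint subunit BUBR1, went from 60.1 to 36.6, on 1200 and 728 reads, a log2 ratio of −0.70 (limits −0.85 to −0.58). By contrast MAD1L1 (chr7:1815793-2233243, − strand), whose product recruits MAD2 to kinetochores, was higher. Its values were 15.9 and 28.4, on 318 and 565 reads, a log2 ratio of 0.80 (limits 0.63 to 1.04). The gene for MAD1 and the gene for its partner MAD2 thus stood at opposite ends of the 55 genes. With the GC trend removed, MAD1L1 was at 0.53, no longer past 1.5-fold, and MAD2L1 at −0.87. The kinases TTK (44.7 and 34.5) and BUB1 (118 and 99.3) and the scaffold BUB3 (276 and 217) had log2 ratios of −0.36, −0.25 and −0.35, each with limits below 0. Over the 6 checkpoint genes the summed value was 24.3% below control and the median log2 ratio was −0.36.

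Of the 4 genes that control anaphase, CDC20 was past 1.5-fold. CDC20 (chr1:43358955-43363203, + strand), the activator of the anaphase-promoting complex that MAD2 inhibits, was at 175 in control and 115 after knockdown, on 3495 and 2282 reads, a log2 ratio of −0.61 (limits −0.69 to −0.53). It was nearest to the 1.5-fold line of the 8 lower members, and with scaling by the median of ratios it was short of it at −0.57. PTTG1, which encodes securin, was at 88.6 and 64.4 (log2 ratio −0.45), and UBE2C, the ubiquitin-conjugating enzyme of the complex, at 110 and 88.3 (−0.31). ESPL1, which encodes separase, the protease that securin restrains, had values of 71.5 and 71.1, on 1427 and 1414 reads, a log2 ratio of −0.01 with limits from −0.11 to 0.10. The order within this group was therefore CDC20 lowest and ESPL1 at its control level, and the median of the 4 was −0.38.

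Of the 4 genes listed under mitotic entry, CKS2 was past 1.5-fold, and the counting limits of all 4 lay above 0. CKS2 (chr9:89311198-89316703, + strand), a small binding partner of cyclin-dependent kinases, had 2669 reads and a value of 134 in control, against 4217 reads and 212 after knockdown, a log2 ratio of 0.66 (limits 0.60 to 0.74). CDC25B and CDC25C encode phosphatases that activate CDK1, and CCNB2 encodes a B-type cyclin. CDC25B was at 343 and 421, on 6857 and 8365 reads, the smallest ratio of the group at 0.29 (limits 0.25 to 0.34). CCNB2 was at 89.0 and 115 (0.36) and CDC25C at 15.7 and 21.4 (0.43, limits 0.24 to 0.67). The summed value of the 4 genes was 32.1% above control. With 4 genes and 1 library per condition, these counts describe the libraries and are not a result about the group.

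The 2 Aurora kinases were placed differently. PLK1, which acts from mitotic entry to cytokinesis, was at 145 and 99.5, on 2892 and 1979 reads, a log2 ratio of −0.54 (limits −0.63 to −0.46). AURKA, the centrosomal Aurora kinase, was at 161 and 116 (−0.48, limits −0.56 to −0.40). AURKB, the Aurora kinase of the chromosomal passenger complex, was at 85.3 and 92.8, on 1703 and 1846 reads, a log2 ratio of 0.12 (limits 0.03 to 0.22). NEK2, a kinase of centrosome separation, was at 59.8 and 60.8 (0.02), with limits on both sides of 0. The limits of AURKA and AURKB did not overlap.

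The partners of AURKB in the passenger complex were not uniformly placed. BIRC5, which encodes survivin, was at 117 and 160, on 2345 and 3183 reads, a log2 ratio of 0.44 (limits 0.37 to 0.52). INCENP, the scaffold of the complex, was at 80.5 and 72.3, on 1608 and 1437 reads, a log2 ratio of −0.15 (limits −0.26 to −0.05). CDCA8, which encodes borealin, was at 59.0 and 57.0 (−0.05), with limits on both sides of 0.

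None of the 3 transcriptional regulators was past 1.5-fold, and FOXM1 alone had limits wholly below 0. FOXM1, the forkhead factor that activates G2/M genes, was at 86.8 and 74.3, on 1732 and 1478 reads, a log2 ratio of −0.22 (limits −0.32 to −0.12). MYBL2 (B-MYB) was at 126 and 130, on 2506 and 2592 reads, a log2 ratio of 0.05 (limits −0.03 to 0.13). LIN54, the subunit shared by DREAM and the MYBL2 complex that contacts the CHR, was at 27.4 and 28.1 (0.04), with limits on both sides of 0. After removal of trends with GC content and length, FOXM1 was at −0.38, MYBL2 at −0.16 and LIN54 at 0.36.

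Kinetochore genes spanned almost the whole range of the members. CENPA (chr2:26764289-26801067, + strand) had 591 reads and a value of 29.6 in control, against 1112 reads and 55.9 after knockdown, a log2 ratio of 0.90 (limits 0.77 to 1.06). KNL1 (chr15:40594020-40664342, + strand), the outer kinetochore scaffold that docks BUB1 and BUB3, was at 45.3 and 27.5, on 905 and 547 reads, a log2 ratio of −0.70 (limits −0.88 to −0.57). CENPE (chr4:103105806-103198409, − strand), a kinesin that carries chromosomes along microtubules, was at 68.7 and 42.5, on 1372 and 846 reads, a log2 ratio of −0.68 (limits −0.82 to −0.57). The 4 subunits of the NDC80 complex, the main microtubule receptor, had smaller ratios. SPC25 was at 23.0 and 18.2 (−0.32), SPC24 at 27.2 and 23.8 (−0.19), NUF2 at 50.5 and 48.3 (−0.06) and NDC80 at 17.6 and 19.6 (0.15), and the limits of NUF2 and NDC80 held 0. CENPF, a large protein of the kinetochore corona, was at 195 and 171 (−0.19).

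Of the 8 kinesins, which are microtubule motors, KIF14 was the one past 1.5-fold. KIF14 (chr1:200551497-200620734, − strand), a motor of the central spindle, was at 89.7 and 52.3, on 1791 and 1040 reads, a log2 ratio of −0.77 (limits −0.89 to −0.67). KIF11 (Eg5), which pushes the spindle poles apart, was at 194 and 139 (−0.48), and KIF23, the motor subunit of centralspindlin, at 184 and 145 (−0.35). KIFC1, a motor that opposes KIF11 in the spindle, was at 62.0 and 79.6, on 1238 and 1584 reads, a log2 ratio of 0.36 (limits 0.25 to 0.47). KIF4A was at 74.6 and 66.1 (−0.17). KIF18A, KIF20A and KIF2C had ratios from −0.03 to 0.01, each with limits that held 0.

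Cytokinesis was led by a pair that act together. RACGAP1 is the partner of KIF23 in centralspindlin, and ECT2 is the RHOA exchange factor that centralspindlin recruits to the cell equator. ECT2 (chr3:172750682-172821474, + strand) had 6311 reads and a value of 316 in control, against 3494 reads and 176 after knockdown, a log2 ratio of −0.84 (limits −0.91 to −0.79). RACGAP1 (chr12:49976923-50033136, − strand) was at 141 and 78.7, on 2816 and 1565 reads, a log2 ratio of −0.83 (limits −0.93 to −0.75). The ratios of this pair did not differ beyond their counting limits. ANLN, the scaffold of the contractile ring, was at 242 and 222 (−0.12). PRC1, which bundles the microtubules of the spindle midzone, was at 143 and 147, on 2850 and 2933 reads, a log2 ratio of 0.05 (limits −0.03 to 0.12), but 64.9% of its exon bases are shared with exons of other genes.

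In spindle assembly, ASPM, a spindle pole protein, was at 135 and 97.4, on 2697 and 1938 reads, a log2 ratio of −0.47 (limits −0.56 to −0.39). TPX2, which activates AURKA on the spindle, was at 247 and 203 (−0.29). DLGAP5 was at 93.4 and 99.0 (0.08) and HMMR at 68.9 and 73.9, on 1376 and 1470 reads (0.10, limits −0.01 to 0.21), so that neither could be told from its control level by counting error alone.

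Chromosome condensation held the most abundant member. TOP2A, the topoisomerase that untangles sister chromatids, was at 865 and 886, a log2 ratio of 0.03 (limits 0.00 to 0.06). None of its 7 genes was past 1.5-fold. SMC4 and SMC2 encode the condensin ATPase subunits. SMC4 was at 242 and 171, on 4825 and 3394 reads, a log2 ratio of −0.50 (limits −0.57 to −0.44), and SMC2 at 126 and 97.6 (−0.36). After removal of trends with GC content and length, these ratios were −0.27 and −0.03. Their condensin I partners NCAPG (82.2 and 66.0) and NCAPH (67.4 and 58.1) had ratios of −0.31 and −0.21, whereas NCAPD2 was at 200 and 247, on 4002 and 4906 reads, a log2 ratio of 0.30 (limits 0.24 to 0.36). Subunits of 1 complex thus lay on both sides of 0 with limits that did not overlap. MKI67, which encodes the proliferation marker Ki-67, was at 296 and 243 (−0.28, limits −0.34 to −0.23).

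**Figure D3:**
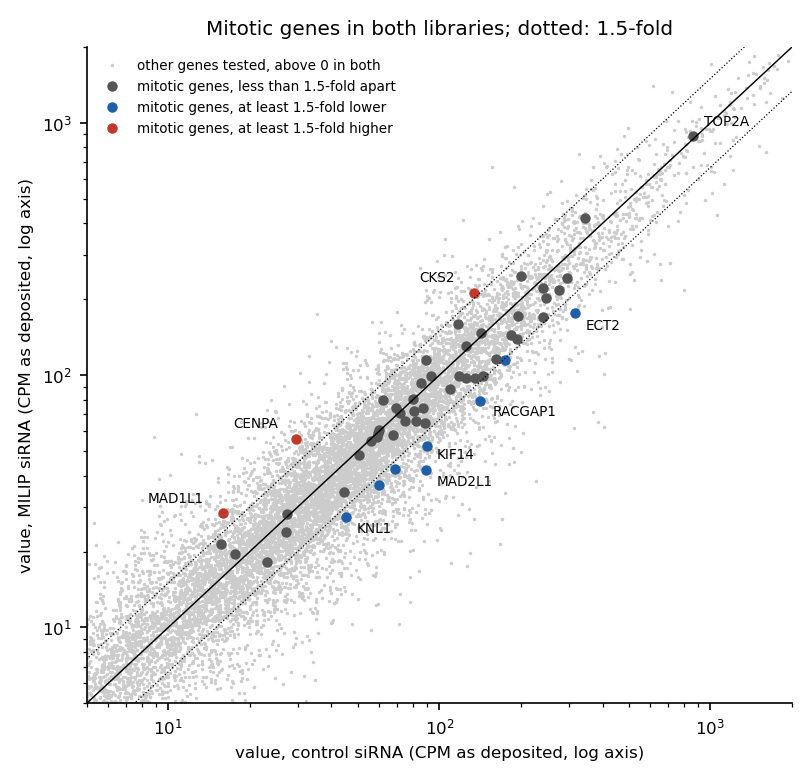
Value of each gene with control siRNA (horizontal axis) and with MILIP siRNA (vertical axis), on log axes. Values are as deposited and taken as CPM, and genes outside the axes are not drawn. The solid line marks equal values and the dotted lines 1.5-fold. The 8 lower members lie among the grey points of the other genes, and TOP2A lies on the line at 865 and 886.

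Divided by transcript length, CKS2 had the highest level of the 55 genes in both libraries, with 218 CPM per kilobase in control and 346 after knockdown, followed by TOP2A at 150 and 154. LIN54 at 4.47, KNL1 at 4.74 and MAD1L1 at 5.33 were the lowest 3 in control. After knockdown KNL1 was the lowest at 2.87, and MAD1L1 was at 9.50. Members past 1.5-fold were thus found at both ends of the range of levels.

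Among the wider set of mitotic genes, 133 of 134 listed in 8 functional groups were tested, and 26 (19.5%) were at least 1.5-fold lower and 5 (3.76%) higher, beside 13.8% and 11.1% of all genes tested. Their median log2 ratio was −0.20. Among the 8046 genes with a mean at least that of the lowest member, 15.1% were lower and 8.60% higher. The lists were chosen with earlier results of these data known. Their counts were not repeated with the GC and length trends removed, and they are given as descriptions. Several of the lowest listed genes encode components that act directly with the 55 genes. In the DREAM and RB family, 5 of 16 were lower. The lowest were E2F2 (21.7 and 7.74, log2 ratio −1.38), E2F5 (21.3 and 9.70, −1.06) and RB1, the retinoblastoma protein gene (65.4 and 31.6, −1.03). E2F5, with E2F4 and RBL2, belongs to the DREAM complex itself, and 18.6% of its exon bases are shared with other genes. In the anaphase-promoting complex, 4 of 17 were lower and 1 higher. Its scaffold subunits ANAPC1 (85.0 and 38.0, −1.14) and ANAPC5 (169 and 80.1, −1.07) were lowest, followed by CDC23 (63.3 and 40.2, −0.64), and ANAPC15, at 3.26 and 5.43 (0.60), was the higher one. In cohesin and its regulators, 2 of 14 were lower and none higher. They were SGO1, the shugoshin that protects centromeric cohesin (19.3 and 7.24, −1.30), and the cohesin loader NIPBL (60.4 and 39.4, −0.60). Of the 14 ratios, 13 (92.9%) were below 0, beside 52.2% of all genes tested, without removal of the GC trend.

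A list of further kinetochore genes and of factors that deposit CENPA had a median of 0.05. Of 29, 4 were lower, among them SKA1 (26.7 and 16.4, −0.67) and CENPI (29.5 and 18.9, −0.62). ZW10 (10.2 and 18.4, 0.79) and CENPU (28.9 and 46.0, 0.66) were higher. Among 24 centrosome and augmin genes tested, CENPJ (33.0 and 16.5, −0.95), HAUS6 (119 and 75.8, −0.64) and CKAP5 (279 and 183, −0.61) were the lowest of 4, and NUSAP1 (92.8 and 140, 0.59) was higher, although 62.2% of its exon bases are shared with other genes. HAUS7 was listed at 0 in both libraries and was not tested.

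The largest differences of the wider set were in other kinesins and cytokinesis genes, of which 3 of 13 were lower and none higher. SEPTIN7, a core septin of the division furrow, was at 226 and 37.9, a log2 ratio of −2.55 (limits −2.69 to −2.47), and the depolymerizing kinesin KIF2A at 79.9 and 20.3, a log2 ratio of −1.92 (limits −2.14 to −1.82). Both were lower than any of the 55 members, and KIF18B was at 107 and 58.1 (−0.87). In condensin II, NCAPD3 was at 77.0 and 38.7 (−0.98) and the other subunits were not past 1.5-fold. In the remaining G2/M genes, GTSE1 (53.2 and 19.9, −1.38), PBK (123 and 67.4, −0.85) and ARHGAP11A (227 and 150, −0.59) were the 3 of 17 that were lower, and none was higher. At least 10% of exon bases were also shared with other genes in SGO1, ANAPC15, CENPU and ARHGAP11A. None of the 6 reference genes was past 1.5-fold, and their median was −0.14.

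Ratios followed transcript GC content, in the members as in all genes. Over the 55 members Pearson's r was 0.37 and Spearman's rho 0.37, and over the 13398 genes with a GC content they were 0.27 and 0.29. Genes of 1 pair of libraries are not independent replicates, and these values are descriptions. The members were poorer in GC than the rest, with a median of 43.9% beside 48.9%. Below 40% GC, the 16 members had a median log2 ratio of −0.42, and the 2008 other genes a median of −0.23. In that range 5 members (31.25%) were lower and 0 higher, beside 21.6% and 4.18% of the other genes. Between 40% and 50% the medians were −0.21 for 23 members and −0.12 for 5069 other genes. From 50% upwards they were −0.01 for 16 members and 0.11 for 6266 other genes, so that the members' median lay below that of the other genes in each of these ranges. The share at least 1.5-fold lower did not follow this. Between 40% and 50% GC it was 8.70% of members beside 16.7% of other genes, and from 50% upwards 6.25% beside 8.985%. The shares higher were 8.70% beside 7.79%, and 6.25% beside 16.1%.

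With the GC trend removed, 6 members (10.9%) were at least 1.5-fold lower, beside 12.9% of all genes tested. With a length trend removed as well, 5 members (9.09%) were, beside 12.4%. The higher members were 2 (3.64%) in each setting, beside 10.2% and 10.1%. CDC20, ECT2, MAD2L1, PLK1 and RACGAP1 were lower in both settings, and CENPA and CKS2 were higher in both. KIF14 was lower with the GC trend removed (−0.60) but not with the length trend removed as well (−0.52). BUB1B (−0.54), CENPE (−0.46) and KNL1 (−0.54) were no longer past 1.5-fold after removal of the GC trend, nor was MAD1L1 (0.53), the member richest in GC at 62.6%. PLK1, at 57.3% GC, was short of 1.5-fold before removal of the trends. It passed with −0.64, and with −0.70 once the length trend was removed as well. The part of GC content in the ratios was not tested.

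**Figure D4:**
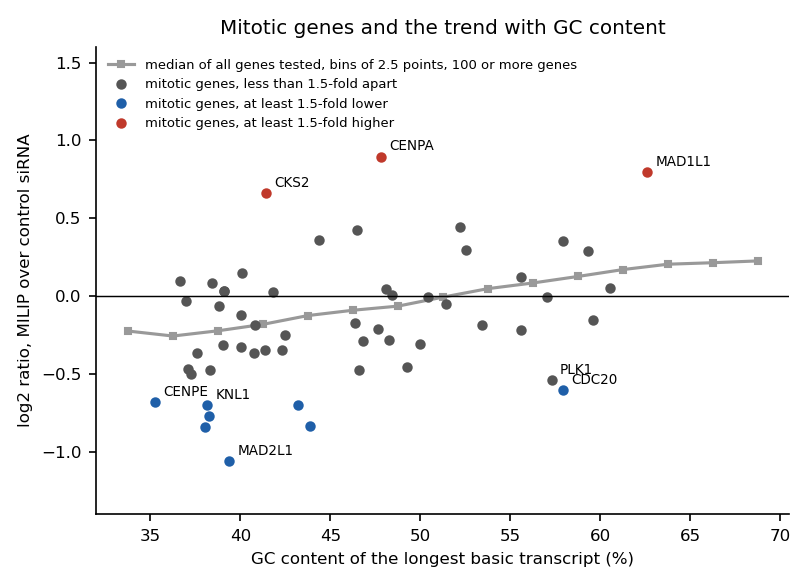
Log2 ratio of each mitotic gene (vertical axis) against the GC content of its longest basic transcript in percent (horizontal axis), with the median of all genes tested in bins as a line. The line climbs from below 0 to above 0 with GC content, MAD2L1 at −1.06 and CENPA at 0.90 lie far from it, and MAD1L1 lies at 62.6% GC.

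Matches to the CHR, to CCAAT and to E2F words were counted in RefSeq promoter windows (GRCh38.p14). Each window ran from 250 bases before to 50 after the first listed transcript start. An entry was found for 46 of the 55 members, and the promoters of AURKA, BIRC5, BUB3, FOXM1, KNL1, RACGAP1, TPX2, TTK and UBE2C were not analysed here. The 4 promoters printed are those of the 2 lowest and the 2 highest members with an entry, each 5′ to 3′ on the strand of the gene. Capitals mark matches on either strand to the CHR (TTTGAA or TTCGAA), to CCAAT, or to an E2F word (TTTCCCGC, TTTGGCGC, TTTCGCGC or TTTGCCGC).
MAD2L1, chr4:120066799-120067098, − strand: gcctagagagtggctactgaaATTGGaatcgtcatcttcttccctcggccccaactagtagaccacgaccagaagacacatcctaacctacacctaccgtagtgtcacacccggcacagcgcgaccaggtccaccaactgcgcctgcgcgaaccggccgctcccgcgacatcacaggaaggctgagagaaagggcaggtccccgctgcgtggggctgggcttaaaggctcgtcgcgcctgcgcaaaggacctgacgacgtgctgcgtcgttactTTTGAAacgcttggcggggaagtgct
ECT2, chr3:172750476-172750775, + strand: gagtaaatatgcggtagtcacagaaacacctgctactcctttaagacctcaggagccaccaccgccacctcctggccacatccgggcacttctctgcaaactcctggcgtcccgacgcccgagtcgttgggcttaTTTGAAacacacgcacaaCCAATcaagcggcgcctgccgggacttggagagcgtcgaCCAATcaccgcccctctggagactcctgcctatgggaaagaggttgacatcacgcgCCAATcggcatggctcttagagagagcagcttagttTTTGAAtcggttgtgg
CENPA, chr2:26785806-26786105, + strand: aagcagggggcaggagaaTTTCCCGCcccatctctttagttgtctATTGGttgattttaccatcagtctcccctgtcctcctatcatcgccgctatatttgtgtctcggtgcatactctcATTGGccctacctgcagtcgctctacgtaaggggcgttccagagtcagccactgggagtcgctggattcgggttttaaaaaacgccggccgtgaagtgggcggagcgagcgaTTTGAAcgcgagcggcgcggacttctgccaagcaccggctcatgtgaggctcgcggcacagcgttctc
MAD1L1, chr7:2232896-2233195, − strand: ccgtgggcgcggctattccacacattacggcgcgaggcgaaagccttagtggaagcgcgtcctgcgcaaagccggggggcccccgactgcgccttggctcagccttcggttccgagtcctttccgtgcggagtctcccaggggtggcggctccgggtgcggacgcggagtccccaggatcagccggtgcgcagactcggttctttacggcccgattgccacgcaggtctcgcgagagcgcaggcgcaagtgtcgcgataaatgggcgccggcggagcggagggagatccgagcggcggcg

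MAD2L1 has its CHR match 27 bases after the start and a CCAAT match 226 bases before it. ECT2 has 2 CHR and 3 CCAAT matches, and CENPA, although it is the highest member, holds a CHR match, 2 CCAAT matches and an E2F word. MAD1L1 holds none of these words. A CHR match was thus held by both of the lowest members shown and by 1 of the highest.

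A CHR match was found in 34 of the 46 promoters (73.9%), beside 16.6% of 27305 promoters of the same length and 10.9% of those of genes tested here. The members were listed partly as genes that DREAM represses, so this share is close to how they were chosen and is given as a description. CHR matches lay close to the start, at a median of 25 bases before it (−25), and 31 of the 44 matches were within 50 bases of it. CCAAT was found in 32 promoters (69.6%), beside 35.7% of all promoters, at a median position of −69.5. Both were held by 26 members (56.5%), beside 6.58% of all promoters. An E2F word was found in 1 member, CENPA, beside 3.33% of all promoters, which says only that these exact letters are not in the other windows. CDC25B, CDC25C, CENPE, KIF2C, MAD1L1 and MYBL2 held none of the 3 kinds of motif.

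Members with and without a CHR match overlapped over most of their range. The 34 with a match had log2 ratios from −1.06 to 0.90 with a median of −0.16, and 5 were lower and 2 higher. The 12 without had ratios from −0.68 to 0.80 with a median of 0.02, and 1 was lower and 1 higher. Over all genes tested, 13.8% were lower and 11.1% higher. These counts are too small to set the members with a match apart from those without. Among other genes tested, the 1093 with a CHR match had a median of −0.06 and the 9204 without one a median of −0.02. Both differences in median were small beside the range of the members, and neither was tested.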

How the data were processed

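RNA from A549 cells with control or MILIP siRNA was sequenced by the study, with 1 library per condition at 48 h. The submitters' processing notes name TopHat2 2.0.12, HTSeq 0.6.1 and hg38. The strand setting, annotation and normalization are not given in the sources used here. The authors deposited 1 CPM value per gene and library, in columns named as read counts. All values above 0 are whole multiples of a step of 0.0501 (control) or 0.0503 (MILIP siRNA), to within 0.001 of a step, and none stands for fewer than 20 reads. The deposited columns of fold change, p-values, q-values and calls of change were not used. A count test was not run, since there is no replicate.

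Members, role groups, lists and the named genes were chosen with earlier results of these data known. The named genes were the members past 1.5-fold, the highest and lowest of each role group, at most 3 lowest and 3 highest past 1.5-fold in each list, and MILIP, CDKN1A, GAPDH and ACTB. A few further genes that this rule or the marker lists name are not reported here. Symbols matched 13365 of 13521 genes tested. Gene positions, length, GC content (99.1% of genes tested) and shared exon bases came from GENCODE release 29. GC and length trends were removed by subtracting the median of 50 bins. For the 8 members with several listed promoter starts, the first was used. The alternatives were other filters and folds, scaling by the median of ratios, a pseudocount of 0.1, the mean, a promoter window from 100 bases before the start and, added after the values were seen, members with under 10% shared exon bases and any listed start. The scripts were tested on simulated data. Calculations used pandas 2.3.3, scipy 1.17.1 and numpy 2.4.6 in Python 3.11.15, and figures matplotlib 3.10.9.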

Additional observations from a re-analysis of the deposited data

How the results depend on the processing

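No paired analysis was possible because with 1 library per condition no replicates exist, and for the same reason no library could be left out. The count of members at least 1.5-fold lower was 8, 14.5% beside 13.8% of all genes tested. With the GC and length trends removed it was 5, 9.09% beside 12.4%. At 2-fold the count of lower members was 1 (MAD2L1), 1.82% of the members beside 4.62% of all genes tested. The count of higher members at 2-fold was 0, beside 3.48% of all genes tested, against 3 at 1.5-fold. Under the other settings tried there were 6 to 8 lower and 2 or 3 higher members. The shares of all genes there were 12.8% to 15.5% lower and 10.1% to 14.0% higher. The median log2 ratio of −0.19 became −0.16 with scaling by the median of ratios, −0.11 with the GC trend removed, −0.071 with the GC and length trends removed, −0.15 as a mean and −0.16 over the 48 members with under 10% of exon bases shared. Scaling took CDC20 to −0.57, short of 1.5-fold. The E2F words were in 0 promoters in the shorter window, against 1. No member past 1.5-fold changed direction under the pseudocount, scaling or trend settings.

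The strand setting of the counting is not known, so reads of the 7 members with at least 10% of exon bases shared (PRC1, NCAPG, SMC4, FOXM1, KIFC1, PLK1 and BUB1B) cannot be told apart from those of overlapping genes. No member had fewer than 313 reads, and variation between cultures could not be measured.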
